A study of Mus musculus with 6 samples.

Results

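The genes described here are 10 regulators of cytosine methylation and Polycomb silencing that govern self-renewal of blood stem cells: the DNA methyltransferases Dnmt1, Dnmt3a and Dnmt3b, the TET enzymes Tet1, Tet2 and Tet3, the Polycomb genes Ezh1, Ezh2 and Bmi1, and Asxl1. They were chosen by gene symbol, and all 10 were found among the 24110 genes of the deposited table. All 10 also passed a filter on low values, with means of 10 or more scaled counts, as did 14113 genes in all. The libraries held RNA of hematopoietic stem cells sorted from bone marrow of C57BL/6 mice by the absence of Lineage markers and CD48 and the presence of Sca-1 and CD150. In the Prmt5 KO group (3 libraries) the floxed Prmt5 gene had been deleted, and in the Prmt5 fl/fl group (3 libraries) it was intact. The sort was done 7 days after induction, in littermates matched for sex, and each library pooled the marrow of 2 mice. The sources used here do not name the Cre driver, the inducing agent, the age of the mice or the deleted exons.

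Methylation of cytosine in CpG dinucleotides is set up by DNMT3A and DNMT3B and copied onto the new strand after replication by DNMT1, while the TET dioxygenases oxidize 5-methylcytosine and so start its removal. Polycomb repressive complex 2 (PRC2), with EZH2 or EZH1 as its catalytic subunit, methylates lysine 27 of histone H3, and complex 1 (PRC1), which can contain BMI1, ubiquitinates histone H2A. ASXL1 is a partner of the deubiquitinase BAP1, which removes the PRC1 mark. In blood, loss of Bmi1 exhausts mouse stem cells, and DNMT3A, TET2 and ASXL1 are frequent mutation targets in human clonal hematopoiesis. PRMT5, the deleted enzyme, symmetrically dimethylates arginine in histones and in Sm proteins of the spliceosome.

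Dnmt3a and Dnmt3b were the members, 2 of 10, whose 3 KO values all lay above the 3 fl/fl values. Over all tested genes the groups did not overlap for 28.2%, and for 8.3% with KO the higher group. The 250 bases before an annotated start of both genes are shown, and the pair was picked by this non-overlap. Capitals mark the GC box GGGCGG or its reverse CCGCCC.
Dnmt3a: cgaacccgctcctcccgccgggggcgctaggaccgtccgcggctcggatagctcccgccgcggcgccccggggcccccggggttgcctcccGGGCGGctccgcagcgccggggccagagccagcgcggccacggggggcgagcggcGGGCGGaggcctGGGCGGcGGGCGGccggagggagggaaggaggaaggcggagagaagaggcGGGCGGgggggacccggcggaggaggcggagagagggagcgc
Dnmt3b: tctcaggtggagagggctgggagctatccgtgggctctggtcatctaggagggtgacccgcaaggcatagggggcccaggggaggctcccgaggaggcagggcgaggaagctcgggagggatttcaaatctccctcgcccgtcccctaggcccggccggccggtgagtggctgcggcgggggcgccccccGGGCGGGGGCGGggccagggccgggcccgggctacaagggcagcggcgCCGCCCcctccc
The sequences are from RefSeq on GRCm38.p6, both on the plus strand, at chr12:3806730-3806979 for Dnmt3a and chr2:153649199-153649448 for Dnmt3b. RefSeq lists 3 starts for Dnmt3a, and the counts per gene do not tell which was used. The GC box occurred 5 times in the Dnmt3a window and 3 times in the Dnmt3b window. The other Dnmt3a windows held 4 and 1, and the member windows ran from 0 to 6, with the most at Bmi1. The letters of the GC box were in 10 of the 14 windows of the 10 members and in 32.7% of 32851 windows of all genes. The 2 shares are not like for like: all members passed the filter on low values, and the windows of all genes were not limited to such genes. Windows 1 and 2 of Dnmt3a also overlap. The CCAAT box (CCAAT or ATTGG) was in 4 of the 14 windows, those of Dnmt1, Ezh2 and Tet3, and in 33.8% of all windows. An E2F-type motif (GCGGGAA or TTCCCGC) was in 1, that of Asxl1, and in 3.82% of all windows. The windows shown held 38 CpG dinucleotides for Dnmt3a and 21 for Dnmt3b, against a median of 6 over all windows, and each GC box contains 1 CpG. The member windows ran from 2 to 51 CpG, with the most at Tet2. These are matches of letters, and no binding or methylation was measured.

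Prmt5 itself was at 1056, 1049 and 897 scaled counts in Prmt5 KO replicates 1 to 3, against 6076, 6024 and 6010 in Prmt5 fl/fl replicates 1 to 3, so every library matched its label. Total reads in genes ran from 37834096 to 41812565 in KO and from 42213314 to 44704636 in fl/fl libraries, and every value below is scaled to 44704636 reads. The stem cell markers Slamf1 (CD150), Kit, Ly6a (Sca-1) and Mecom were present in all libraries, with means of 3034, 39014, 7546 and 8657 scaled counts in KO and 3608, 39929, 6193 and 6005 in fl/fl. Of 10 stem cell markers limma and edgeR called 0, with 2 higher and 1 lower at an unadjusted p below 0.05, and the groups did not overlap for 4. Over all tested genes 18.2% had an unadjusted p below 0.05, and the groups did not overlap for 28.2%. DESeq2 called 2 of the 10 markers, against 7.1% of all genes. Procr, 1 of these 2, is reported here and was chosen after its values were seen. Procr (EPCR) had a log2 change of 0.60 (limma, adjusted p = 0.124; DESeq2, adjusted p = 0.0147). Without fl/fl replicate 3 limma called it, at 0.76 (adjusted p = 0.0184). The part of this shift in the values of the members was not tested. Cd48, which the gate excludes, was at 492 to 676 in KO and 446 to 757 in fl/fl.

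Each genotype had a library that stood apart. In fl/fl replicate 3 the values depended on gene length: relative to the mean of fl/fl replicates 1 and 2, the 3529 shortest tested genes (up to 1758 bases) lay at a median log2 difference of 0.44 and the 3528 longest (4291 bases and over) at -0.64. Of the 10 members 7 are among these longest genes, and in 6 members fl/fl replicate 3 was the lowest of all 6 libraries. In KO replicate 3 the summed level of 11 granulocyte and monocyte markers was 22864 RPKM (reads per kilobase of gene length, scaled to the total reads in genes), against at most 3342 in the other KO libraries and 1254 to 5885 in fl/fl. The neutrophil gene S100a9 was at 211095 scaled counts there, against 2476 to 38708 in the other 5 libraries. All members are therefore also given without fl/fl replicate 3 in the plot of fold changes, and fold changes of other named genes are given without it where they moved by over 1.5 times. Values without KO replicate 3 are given for Dnmt3a, Dnmt3b and Tet2. The part of gene length and of granulocyte RNA in the members' values was not tested.

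**Figure D1:**
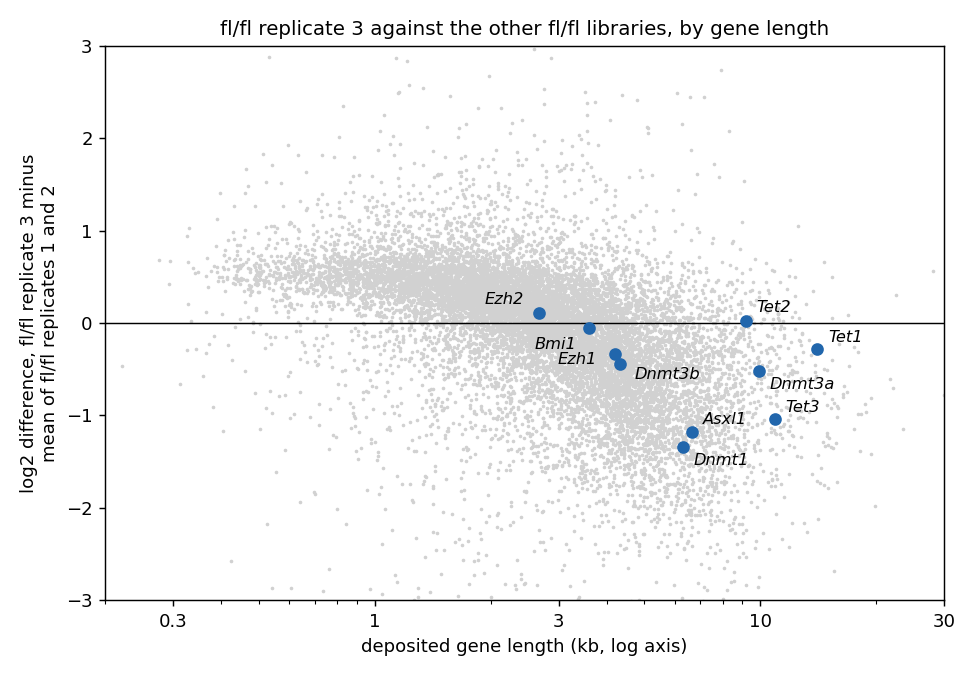
Each grey dot is 1 tested gene, with its deposited length (kb, log axis) and the log2 difference of fl/fl replicate 3 from the mean of fl/fl replicates 1 and 2; blue dots are the 10 members, and 261 genes lie outside the axes. Dnmt1, Asxl1 and Tet3 lie at -1.34, -1.18 and -1.04, while Tet2, with 9181 bases, lies at 0.024.

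None of the 10 members passed the limma threshold of an adjusted p below 0.05 over all genes, which 0.73% of tested genes passed. At an unadjusted p below 0.05 limma gave 2 members, Dnmt3a and Dnmt3b, both higher in KO, a share of the members near the 18.2% of all genes. EdgeR called 0 members, and DESeq2 called 1, Dnmt3b, against 7.1% of all genes. Without fl/fl replicate 3 limma again called 0 members, where it called 2.68% of all genes. The groups did not overlap for 2 of the 10 members, again Dnmt3a and Dnmt3b. Over all genes this was so for 28.2%, and for 8.3% with KO the higher group. The median log2 change of the members was 0.077, against -0.048 over all tested genes, and without fl/fl replicate 3 the medians were -0.030 and -0.076. In bulk libraries such as these, fewer cells that express a gene and less RNA per cell cannot be told apart.

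**Figure D2:**
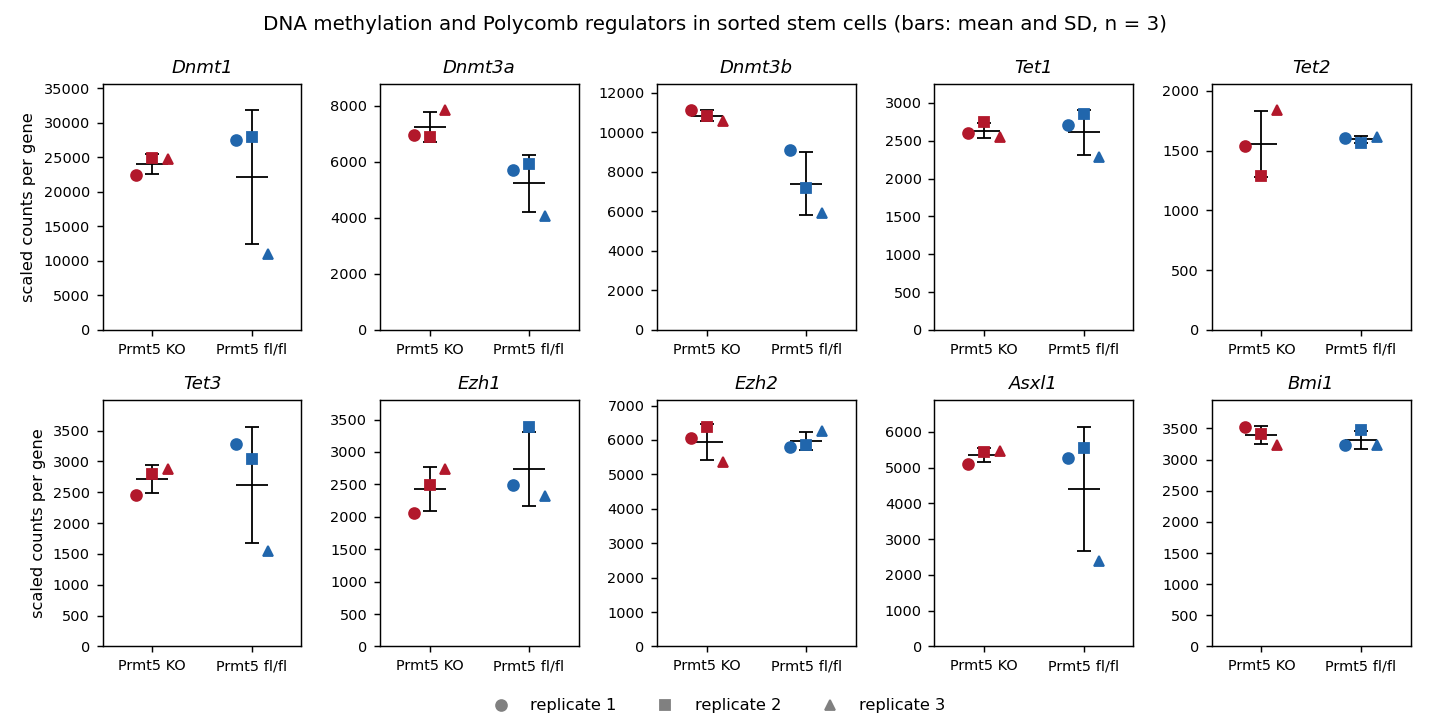
Scaled counts of the 10 members in every library (points, shaped by replicate number) with the mean and SD of each genotype (n = 3); axes start at 0. KO and fl/fl values are apart for Dnmt3a and Dnmt3b, and fl/fl replicate 3 is the low point for Dnmt1, Tet3 and Asxl1.

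Dnmt3b, a de novo methyltransferase (chromosome 2, 153649450 to 153687730, plus strand, GRCm38 with GENCODE M21), had 11119, 10808 and 10556 scaled counts in KO replicates 1 to 3, against 9110, 7158 and 5926 in fl/fl replicates 1 to 3. The KO values lay close together, and the fl/fl values spread more widely below them. The means were 10828 ± 282 in KO and 7398 ± 1605 in fl/fl (SD, n = 3 each). The log2 fold change was 0.57, a 1.49-fold difference, with a 95% interval of 0.18 to 0.96 (limma, adjusted p = 0.139). By DESeq2 it was 0.64 and passed the threshold (adjusted p = 0.0255), and by edgeR it was 0.61 and did not (adjusted p = 0.144). Without fl/fl replicate 3 it was 0.42 (limma, adjusted p = 0.0878), and without KO replicate 3 it was 0.59 (limma, adjusted p = 0.323). Between libraries that share a title prefix and replicate number, the log2 difference was 0.29, 0.59 and 0.83 for replicates 1 to 3.

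Dnmt3a, the other de novo enzyme (chromosome 12, 3806007 to 3914443, plus strand), had 6956, 6889 and 7851 scaled counts in KO replicates 1 to 3, against 5709, 5927 and 4074 in fl/fl replicates 1 to 3. All 3 KO libraries were above all 3 fl/fl libraries, with the highest value in KO replicate 3 and the lowest in fl/fl replicate 3. The means were 7232 ± 537 in KO and 5237 ± 1013 in fl/fl (SD, n = 3 each). The log2 change was 0.48 with a 95% interval of 0.089 to 0.88 (limma, adjusted p = 0.196; DESeq2, adjusted p = 0.0671). It was 0.31 without fl/fl replicate 3 (limma, adjusted p = 0.105) and 0.42 without KO replicate 3 (limma, adjusted p = 0.453). The same-number differences were 0.29, 0.22 and 0.95. The antisense transcript Dnmt3aos shares 133 exon bases with Dnmt3a, and strand is not kept by the kit. Dnmt3aos was at 0 to 2.36 scaled counts in KO and 0 to 11 in fl/fl. Opposite-strand transcripts also share 197 exon bases with Asxl1, 174 with Ezh2 and 43 with Tet2. The one at Asxl1, 2500004C02Rik, had a mean of 395 scaled counts, and those at Ezh2 and Tet2 are not in the deposited table. The part of antisense reads in the members' counts was not tested.

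Dnmt1, the maintenance enzyme (chromosome 9, 20907209 to 20959888, minus strand), had 22448, 24897 and 24809 scaled counts in KO replicates 1 to 3, against 27486, 28025 and 10938 in fl/fl replicates 1 to 3. Thus 2 fl/fl libraries were above all KO libraries, and fl/fl replicate 3 was below them all. With all libraries the log2 fold change was 0.24 with a 95% interval of -0.56 to 1.04 (limma, adjusted p = 0.738). Without fl/fl replicate 3 the direction turned, to -0.21 with an interval of -0.41 to -0.0076 (limma, adjusted p = 0.198; 0.0438 before adjustment). By edgeR without that library the value was -0.13 (adjusted p = 0.409).

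Among the TET genes, which oxidize methylcytosine, no difference passed the test. Tet1 (chromosome 10, 62804570 to 62908996) was at 2597, 2747 and 2555 scaled counts in KO and at 2702, 2849 and 2281 in fl/fl, overlapping ranges with a log2 change of 0.018 (95% interval -0.30 to 0.34; limma, adjusted p = 0.957). Tet2 (chromosome 3, 133463679 to 133545139) was at 1541, 1284 and 1839 in KO and at 1606, 1563 and 1611 in fl/fl. Here the KO libraries spread on both sides of nearly equal fl/fl values, with a log2 change of -0.051 (95% interval -0.44 to 0.34; limma, adjusted p = 0.894). The highest Tet2 value was in KO replicate 3, the library with the granulocyte markers, and without it the log2 fold change was -0.18 (limma, adjusted p = 0.706). Tet3 (chromosome 6, 83362373 to 83459084) was at 2458, 2795 and 2881 in KO and at 3281, 3044 and 1541 in fl/fl. As for Dnmt1, fl/fl replicates 1 and 2 were above all KO libraries and fl/fl replicate 3 below them. Its log2 fold change was 0.12 (95% interval -0.54 to 0.78; limma, adjusted p = 0.847), and without fl/fl replicate 3 it turned to -0.22 (95% interval -0.48 to 0.028; limma, adjusted p = 0.256).

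The catalytic PRC2 genes had similar levels in both genotypes within their spread. Ezh2, the catalytic subunit that prevails in dividing cells (chromosome 6, 47530139 to 47595341), was at 6051, 6389 and 5374 scaled counts in KO, against 5784, 5864 and 6272 in fl/fl. The ranges overlapped, and the log2 change of -0.011 had a 95% interval of -0.29 to 0.27 (limma, adjusted p = 0.968). Ezh1, the paralog prominent in resting cells (chromosome 11, 101191115 to 101226463), was at 2062, 2490 and 2737 in KO, against 2497, 3391 and 2315 in fl/fl. Its log2 fold change was -0.16 (95% interval -0.60 to 0.28; limma, adjusted p = 0.681), and it was -0.27 without fl/fl replicate 3 (limma, adjusted p = 0.381) and 0.0053 without fl/fl replicate 2. The intervals leave room for differences of up to 0.60 on the log2 scale for Ezh1 and 0.29 for Ezh2.

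Bmi1, a PRC1 subunit that stem cells need to renew themselves (chromosome 2, 18677018 to 18686629), had the narrowest range over the 6 libraries among the members. It was at 3531, 3415 and 3236 scaled counts in KO, against 3229, 3478 and 3237 in fl/fl. The log2 fold change was 0.034 with a 95% interval of -0.24 to 0.31 (limma, adjusted p = 0.899), and it lay between 0.0049 and 0.12 under all 19 alternatives tried. Of these alternatives the changed filters and the replicate block cannot move it. Asxl1 (chromosome 2, 153345829 to 153404007) was at 5114, 5451 and 5467 in KO, against 5273, 5541 and 2393 in fl/fl. Apart from fl/fl replicate 3, its libraries lay within 5114 to 5541. The log2 fold change was 0.37 with all libraries (95% interval -0.34 to 1.09; limma, adjusted p = 0.549) and -0.017 without fl/fl replicate 3 (95% interval -0.21 to 0.18).

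**Figure D3:**
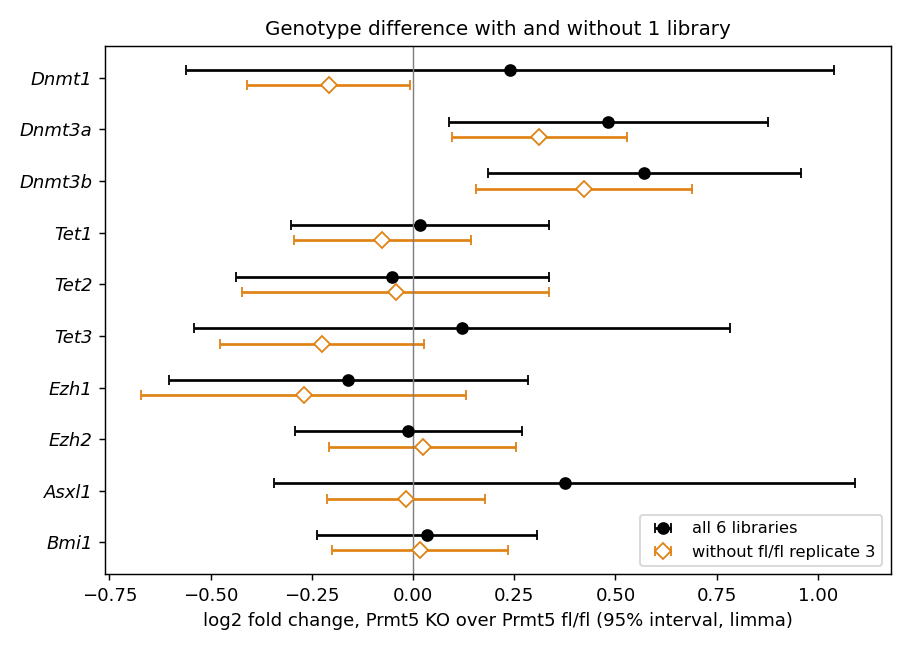
Log2 fold change of each member, KO over fl/fl, with its 95% interval from limma, for all 6 libraries (black) and without fl/fl replicate 3 (orange). Dnmt3a and Dnmt3b stay above 0 in both; Dnmt1 is at 0.24 and -0.21, Tet3 at 0.12 and -0.22, Asxl1 at 0.37 and -0.017.

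The spread between libraries was wider in fl/fl than in KO for 7 of the 10 members. The coefficient of variation of Dnmt1 was 5.78% in KO and 43.9% in fl/fl, and that of Asxl1 3.73% and 39.6%. Tet2, Ezh2 and Bmi1 went the other way, with 17.9% in KO and 1.66% in fl/fl for Tet2. The genes outside the set with patterns most like those of the 3 most variable members were found by the root mean square difference of centred log2 values over the 6 libraries, among 7047 genes at or above the median level. For Dnmt1 they were Lig3 (0.015), Fryl (0.032) and Ube4a (0.036), for Asxl1 Ikbkap (0.030), D15Ertd621e (0.032) and Usp7 (0.035), and for Tet3 Adar (0.036), Tmem164 (0.047) and Nf2 (0.049). These 9 genes are 5298 to 11470 bases long, and their lengths were not compared with those of the other candidates. All were lowest in fl/fl replicate 3, as the 3 members were, which follows from the way they were picked. Lig3, for example, was at 4510, 4888 and 4879 in KO and at 5372, 5537 and 2188 in fl/fl.

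Levels of different genes were compared as RPKM. In KO, Dnmt1 was the highest (79.7 to 88.3), then Dnmt3b (54.6 to 57.5), Ezh2 (45.1 to 53.6), Bmi1 (20.1 to 22.0), Asxl1 (17.1 to 18.3), Dnmt3a (15.5 to 17.7), Ezh1 (10.96 to 14.6), Tet3 (5.04 to 5.91), Tet1 (4.06 to 4.36) and Tet2 (3.13 to 4.48). The mean of Dnmt1 was 22.5 times that of Tet2. Of these neighbours only Asxl1 with Dnmt3a and Tet1 with Tet2 overlapped between their 3 KO libraries. In fl/fl replicates 1 to 3 Ezh2, at 48.5, 49.2 and 52.6, stood above Dnmt3b, at 47.1, 37.0 and 30.6, the opposite order to that in KO. The 2 genes were close in replicate 1 and furthest apart in replicate 3, the library whose values depended on gene length. This pair was picked after its values were seen and was not tested. Dnmt1 in fl/fl was at 97.5 and 99.4 in replicates 1 and 2 and at 38.8 in replicate 3, and the TET genes were again the lowest, at 3.16 to 6.73.

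**Figure D4:**
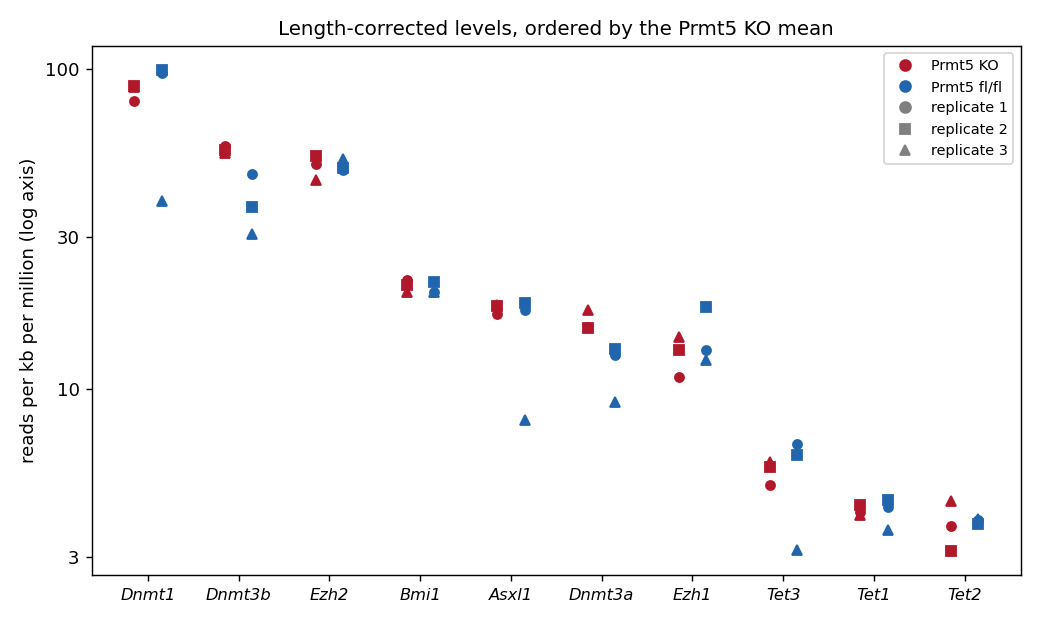
RPKM (log axis) of each member in each KO (red) and fl/fl (blue) library, ordered by the KO mean. The level runs from 85.3 for Dnmt1 to 3.79 for Tet2 in KO means, and Dnmt3b lies above Ezh2 in KO and below it in fl/fl, narrowly so in fl/fl replicate 1.

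Ratios of paralogs within a library do not depend on the scaling of that library. Length-corrected, Dnmt3a was at 0.272, 0.277 and 0.324 of Dnmt3b in KO and at 0.273, 0.360 and 0.299 in fl/fl, overlapping ranges (log2 difference -0.089; exact permutation test, two-sided, p = 0.6). Ezh1 was at 0.216, 0.247 and 0.323 of Ezh2 in KO and at 0.274, 0.367 and 0.234 in fl/fl (log2 difference -0.15; exact permutation p = 0.6). Dnmt3a was at 0.196, 0.175 and 0.201 of Dnmt1 in KO and at 0.132, 0.134 and 0.236 in fl/fl (log2 difference 0.24; exact permutation p = 0.4). With 1 fl/fl library left out the log2 difference came to 0.098 (replicate 1), 0.11 (replicate 2) and 0.52 (replicate 3). Tet2 was at 0.745, 0.546 and 0.758 of Tet3 in KO and at 0.582, 0.610 and 1.24 in fl/fl (log2 difference -0.17; exact permutation p = 0.8), and without fl/fl replicate 3 the difference turned to 0.18. Over these 4 ratios the smallest p after Benjamini-Hochberg adjustment of the exact tests was 0.8, and 3 against 3 libraries cannot go below 0.1.

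The partners of these enzymes were read from 9 lists of the DNA methylation and Polycomb pathways, 105 genes in all, of which 97 were tested. Limma called 0 of them, 12 had an unadjusted p below 0.05 (2 higher and 10 lower in KO), edgeR called 0 and DESeq2 called 1. The background over all genes was 18.2% at an unadjusted p below 0.05 and 7.1% by DESeq2, so neither count over the 9 lists together was above it. Their median log2 fold change was 0.056, against -0.048 over all genes, and -0.034 against -0.076 without fl/fl replicate 3. Without that library limma called 2 of the 97, both lower in KO, where it called 2.68% of all genes, a share near that of the list: Ogt, which attaches N-acetylglucosamine to proteins and binds TET enzymes, and D2hgdh, which destroys D-2-hydroxyglutarate, an inhibitor of TET enzymes.

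Of 10 tested partners of demethylation 8 had a log2 fold change below 0 and 2 above, where 44.8% of all tested genes were above 0. The median was -0.39 (-0.32 without fl/fl replicate 3). At an unadjusted p below 0.05 limma gave 5 of the 10, all lower in KO, against 18.2% of all tested genes. The groups did not overlap for 5 of the 10, against 28.2%. After adjustment limma called 0 of the 10. D2hgdh was at 989, 1148 and 1024 scaled counts in KO, against 1600, 1711 and 1464 in fl/fl, and the groups did not overlap. Its log2 fold change was -0.59 (limma, adjusted p = 0.103; DESeq2, adjusted p = 0.0293), and -0.65 without fl/fl replicate 3 (limma, adjusted p = 0.0482). Idh1, which makes the 2-oxoglutarate that TET enzymes use, was at 774, 850 and 1067 in KO and at 1466, 1261 and 1943 in fl/fl (log2 fold change -0.78; limma, adjusted p = 0.122). Ogt was at 10339, 12022 and 10519 in KO and at 15143, 18936 and 11633 in fl/fl, with a log2 change of -0.45 (limma, adjusted p = 0.258) and of -0.63 without fl/fl replicate 3 (limma, adjusted p = 0.0483). Tdg, the glycosylase that excises oxidized methylcytosine, and Cxxc4 had means under the filter.

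The 11 tested partners of DNA methylation had a median log2 change of 0.21, and of 0.0018 without fl/fl replicate 3. Hells, a chromatin remodeler needed for DNA methylation, was at 5649 ± 300.5 in KO and 4406 ± 588 in fl/fl (SD, n = 3 each; log2 fold change 0.37; limma, adjusted p = 0.226). Zfp57, which keeps methylation at imprinted loci, was at 233 ± 36.1 and 143 ± 43.6 (KO, fl/fl; log2 fold change 0.73; limma, adjusted p = 0.238). Among 8 methyl-CpG readers, Mbd4, a glycosylase for T:G mismatches at CpG sites, was at 1634 ± 162 in KO and 2192 ± 135 in fl/fl (log2 fold change -0.43; limma, adjusted p = 0.174), and Zbtb4 had a log2 change of -0.50 (limma, adjusted p = 0.487), which was -0.77 without fl/fl replicate 3. The S-adenosylmethionine cycle supplies the methyl group to the methyltransferases. In it Mat2a, the synthetase, was at 28636, 31034 and 26697 in KO, against 34604, 40894 and 36045 in fl/fl. All 3 KO values were below the fl/fl values, with a log2 change of -0.37 (limma, adjusted p = 0.167). Mat2b, its regulatory subunit, had one of -0.46 (limma, adjusted p = 0.262), which was -0.25 without fl/fl replicate 3.

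Of the 9 PRC2 partners 7 had a log2 fold change above 0, against 44.8% of all tested genes, with a median of 0.17 (0.11 without fl/fl replicate 3). The smallest p-values were those of the accessory subunits Aebp2, at 0.29 (limma, adjusted p = 0.430), and Phf19, at 0.30 (limma, adjusted p = 0.463). Without fl/fl replicate 3 these were 0.11 and 0.13. In the list of 21 PRC1 partners the median was -0.010 (-0.11 without fl/fl replicate 3), and Cbx7, which binds methylated lysine 27, was at 755, 1185 and 951 in KO, against 1486, 1880 and 1315 in fl/fl. The groups did not overlap (log2 fold change -0.70; limma, adjusted p = 0.160). Ring1, a ubiquitin ligase of the complex, had a log2 change of -0.38 (limma, adjusted p = 0.249). The 8 tested partners of ASXL1 had a median of 0.31, which was 0.017 without fl/fl replicate 3. Hcfc1, a binding partner of BAP1, was at 11771 ± 609 in KO and 7935 ± 4232 in fl/fl (log2 fold change 0.76; limma, adjusted p = 0.399), with 3132 scaled counts in fl/fl replicate 3, and Foxk1 had a log2 change of 0.45 (limma, adjusted p = 0.511). Without that library Hcfc1 was at 0.19 and Foxk1 at 0.047. For 12 H3K27 demethylases and Trithorax genes the median was 0.12 and turned to -0.058 without fl/fl replicate 3. Rbbp5 was at 0.25 (limma, adjusted p = 0.391) and the demethylase Kdm6b at 0.48 (limma, adjusted p = 0.410), and without that library they were at 0.13 and 0.41.

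Genes that Polycomb complexes are reported to hold silent in blood cells either lay under the filter or did not pass the test. Cdkn2a, which encodes p16 and ARF and is the classical target of Bmi1, was at 0 to 1.07 scaled counts in KO and 1.01 to 2 in fl/fl. Cdkn2b was at 5.91 to 39.0 in KO and 0 to 5 in fl/fl, so its groups did not overlap, at low counts. The B cell factors Ebf1 and Pax5 were at 3.21 to 10.6 and at 0 in KO, against 0 to 18 and 0 to 5 in fl/fl. These 4 genes were under the filter and were not tested. Of the 6 tested targets limma, edgeR and DESeq2 called 0, with 0 at an unadjusted p below 0.05. Lin28b had a log2 change of 0.73 (limma, adjusted p = 0.312) and Hoxa10 one of -0.30 (limma, adjusted p = 0.378).

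DNA replication and mitosis, with which Dnmt1 and Ezh2 levels are known to rise, were measured in the same fit. Of 18 genes of the G1/S transition and replication and 15 of mitosis, limma, edgeR and DESeq2 called 0, with 0 at an unadjusted p below 0.05. The medians were 0.098 and -0.060, and both turned without fl/fl replicate 3, to -0.0030 and 0.020. Mcm7, a helicase subunit, had a log2 change of -0.29 (limma, adjusted p = 0.293), E2f1 one of -0.26 (limma, adjusted p = 0.450), Top2a one of -0.27 (limma, adjusted p = 0.399) and Nusap1 one of -0.28 (limma, adjusted p = 0.404), which was -0.17 without fl/fl replicate 3. Markers of other cell types moved beside Dnmt3a and Dnmt3b: the summed level of 14 megakaryocyte and platelet markers was 564 to 1428 RPKM in KO and 1104 to 1919 in fl/fl, and limma called 2 of them lower, Itga2b and Rab27b. DESeq2 called 5 of the 14, edgeR 1, and limma without fl/fl replicate 3 called 5, all lower. For 10 red cell precursor markers, 8 of them tested, the sum was 26.5 to 32.1 in KO and 41.1 to 101 in fl/fl, limma called Klf1 lower, and 2 globin genes, Hba-a1 and Hbb-b1, were listed at 0 in all libraries. Of these 8 DESeq2 called 3, edgeR 0, and limma without fl/fl replicate 3 called 2, both lower. Limma called 0 of the tested markers of B cells (7), T and NK cells (9), mast cells and basophils (5), stroma and endothelium (8) and granulocytes and monocytes (11), with 0, 2, 0, 1 and 1 at an unadjusted p below 0.05; edgeR called 0 and DESeq2 called 1, of T and NK cells. Over all tested genes the share called was 0.73% by limma, 2.68% by limma without fl/fl replicate 3 and 7.1% by DESeq2. At an unadjusted p below 0.05 it was 18.2%. The part of these cell type markers in the values of Dnmt3a and Dnmt3b was not tested.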

How the data were processed

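RNA of sorted stem cells was extracted with Trizol, amplified by SMART-Seq v4 and built into Nextera XT libraries, per the labels' protocols; neither kit marks strand. Reads were aligned with STAR and assigned to genes with featureCounts on mm10, per the submitters' processing notes; the sources used here give neither versions nor annotation. Of the 6 deposited columns, 1 (fl/fl replicate 2) holds whole-number counts. The other 5 deposited columns hold a signal: counts brought to a common total of 44704636. Reversing the scaling gave whole reads for 100% of values (tolerance 1e-06).

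Genotypes were compared on log2(value + 1), which understates changes of low genes, by limma (moderated, two-sided, trended variance) for 14113 genes, with Benjamini-Hochberg adjustment over all of them and a threshold of 0.05. Ratios were compared by exact permutation. R 4.3.3, limma 3.58.1, edgeR 4.0.16, DESeq2 1.42.0, Python 3.11.15 and matplotlib 3.10.9 were used. The fit was tested on simulated counts that held neither a gene length trend nor a library that stood apart, so that test does not cover these features. The p-values thus measure how far pools of mice differ, which may be partly technical. The members and lists were chosen with earlier results of these data known. Named genes were Prmt5, all members, in each list those past the threshold or else the 2 with the smallest p, and fixed markers; Ogt, Procr, S100a9, Cd48 and the untested genes were named after their values were seen. Alternatives changed the pseudocount, filter, scaling, tool, replicate block and libraries; a correction for gene length was added after seeing the data. Gene positions came from GENCODE M21 (GRCm38). Of the stem cell markers 1 gene is not reported here. No library was a copy of another (chi-square per degree of freedom at least 27.3).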

Additional observations from a re-analysis of the deposited data

How the results depend on the processing

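Limma called 103 genes over all tested, 37.9% of them higher in KO. The count was 67 with TMM factors, 57 with median-of-ratios size factors, 64 with quantile normalization, 60 with edgeR and 981 with DESeq2, of which 52.2%, 61.4%, 59.4%, 56.7% and 37.2% were higher. It was 3 to 378 with 1 library left out, 419 with the gene length trend removed, 428 with that and fl/fl replicate 3 left out, and 194 by edgeR without that library; the cause was not tested. Members called stayed at 0 in 18 of the 19 alternatives and were 1, Dnmt3b, with DESeq2. Dnmt3a, Dnmt3b and Bmi1 kept their direction in all 19. Among the 19, the changed filters and the replicate block cannot move a gene's log2 fold change, and the pseudocounts hardly move it at the levels of the members. With 1 library left out the log2 fold change ran from 0.31 to 0.58 for Dnmt3a, 0.42 to 0.73 for Dnmt3b, -0.21 to 0.47 for Dnmt1, -0.076 to 0.084 for Tet1, -0.18 to 0.079 for Tet2, -0.22 to 0.32 for Tet3, -0.27 to 0.0053 for Ezh1, -0.066 to 0.059 for Ezh2 and -0.017 to 0.59 for Asxl1. Without fl/fl replicate 3, the values with the length trend removed and by edgeR were -0.13 and -0.13 for Dnmt1, 0.037 and 0.053 for Tet2, -0.14 and -0.15 for Tet3, and 0.11 and 0.10 for Ezh2, each opposite to the value with all libraries. Removal of the length trend alone gave -0.20 for Tet1, -0.074 for Tet3 and 0.10 for Ezh2, also opposite. The other members kept their direction. Dnmt3a was then at 0.30 (limma, adjusted p = 0.161), its lowest value of all alternatives, and Dnmt3b at 0.54 (limma, adjusted p = 0.052). Dnmt1 was at 0.12, Asxl1 at 0.25, Bmi1 at 0.061, Tet2 at -0.23 and Ezh1 at -0.18. With TMM factors, size factors, edgeR and DESeq2, Tet2 turned to 0.012, 0.036, 0.031 and 0.055, and Ezh2 to 0.052, 0.076, 0.053 and 0.077. The log2 ratio differences with 1 library left out ran from -0.31 to 0.029 for Ezh1 to Ezh2, -0.18 to 0.023 for Dnmt3a to Dnmt3b, 0.098 to 0.52 for Dnmt3a to Dnmt1, and -0.37 to 0.18 for Tet2 to Tet3.

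The labels do not say that a replicate number marks a litter or day. Deviations of same-number libraries from their group means correlated at -0.14, 0.067 and -0.26, and none of the 3 KO libraries correlated best with its own number. Such deviations cancel out within a group, so a library that stands apart weighs on all of them. The correlations therefore cannot decide what the number marks. With the number as a replicate block limma called 1 gene and 0 members (adjusted p = 0.359 for Dnmt3a and 0.255 for Dnmt3b). In this balanced design a block leaves every log2 fold change and ratio difference as it was, so it cannot show whether a direction holds.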
